A study of Homo sapiens with 15 samples.

Results

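The genes described are 42 components of the lysosome, chosen by name: 10 cathepsins and related peptidases, 12 glycosidases, a sulfatase and lipid hydrolases, 7 membrane proteins and sterol carriers, 11 subunits of the proton pump, and the transcription factors TFEB and TFE3. All 42 were found among the 23368 genes of the count table, and 41 of them were tested. CTSS was not tested because its mean normalized count in WT6 cells was below the minimum of 10. RNA was sequenced from 3 clones of brain metastatic breast cancer cells, each grown from a single cell, in which doxycycline switches on a transgene of the RNA binding protein RBM47. WT6 and WT10 cells carry wild type RBM47, and MUT3 cells carry the truncated RBM47 I281fs. The sample labels name MDA231 as the cell line of all clones, whereas the study's methods derive WT6 from CN34-BrM2 and both WT10 and MUT3 from 231-BrM2, a brain metastatic derivative of MDA-MB-231. Each clone was untreated or received doxycycline at 1, 2.5, 5 or 25 ng/ml, and a single library stands for each condition. No clone carrying an empty vector was analysed here, so every treated library also differs from its control by the antibiotic itself.

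Lysosomes are acidic compartments in which proteins, glycans and lipids delivered by endocytosis and autophagy are broken down. The V-type ATPase pumps protons into the lumen with a membrane sector (V0) that carries the protons and a cytosolic sector (V1) that hydrolyses ATP, and most lysosomal hydrolases need the resulting low pH. TFEB and TFE3 are related factors that bind E-box sequences in the promoters of many lysosomal genes and raise their transcription, largely when nutrients are scarce.

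These E-boxes lie in the promoters of several members and are shown because they are the element that the genes are known to share. RefSeq promoter sequences (GRCh38.p14, 250 bases before to 50 after the start site) were matched for 28 of the 42 genes. The 6 bases CACGTG, which read the same on both strands, stood in 10 of the 28, or 35.7%, against 7.43% of all 27305 promoters in the table and 10.2% of the promoters of the 9737 tested genes. The longer GTCACGTG, searched on both strands and always holding a CACGTG, stood in 7 of the 28, or 25%, against 2.53% of all promoters and 4.51% of those of tested genes. The windows of 30 bases below are written 5′ to 3′ on the gene's own strand, with the matched letters in capitals.
CTSA, chr20:45891280-45891309, plus strand: ggaggaagactGTCACGTGgcgccggagtt
CTSD, chr11:1763956-1763985, minus strand: ccggccgcgccCACGTGACcggtccgggtg
GAA, chr17:80101538-80101567, plus strand: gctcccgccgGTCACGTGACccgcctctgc
NEU1, chr6:31862930-31862959, minus strand: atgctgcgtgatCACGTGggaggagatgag
LAMP1, chr13:113297034-113297063, plus strand: gaccaggccggGTCACGTGggtccagggtc
CD63, chr12:55729172-55729201, minus strand: ccgggtaggggcCACGTGgccctggccggg
MCOLN1, chr19:7522570-7522599, plus strand: gaccagaggcgGTCACGTGaggggctctgg
ATP6V0B, chr1:43974890-43974919, plus strand: accggcgtgggGTCACGTGgtaccggcgca
ATP6V0D1, chr16:67481200-67481229, minus strand: gcccccttatgGTCACGTGaggcgcttgcg
LAMP1 held 6 matches to GTCACGTG and was the richest of the 28, and CTSA, GAA and MCOLN1 held 2 each. NEU1, CD63 and CTSF held only the shorter CACGTG. Presence of the letters is a description of the sequence, and binding of any factor was not measured.

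Normalized counts are the reads on a gene divided by a size factor for the library, and they are listed below in the order 0, 1, 2.5, 5 and 25 ng/ml. RBM47 itself was 258, 3137, 8094, 3966 and 10425 in WT6 cells. In WT10 cells it was 168, 827, 2822, 8134 and 19877. In MUT3 cells it was 73.8, 92.1, 336, 949 and 22084. The transgene therefore rose with the labels in every clone, except that WT6 cells had less RBM47 mRNA at 5 than at 2.5 ng/ml. At 25 ng/ml the mutant mRNA (22084) was above that of WT10 (19877) and WT6 (10425). At 1, 2.5 and 5 ng/ml it was below both wild type clones. Equal doses thus did not give equal RBM47 mRNA in the clones. The paper reports low levels of the mutant protein, with none detected by Western blot in non-clonal brain metastatic cells given doxycycline.

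The libraries held 14955172 to 44771871 reads on genes, and every member but CTSS had at least 14 reads in every library. The libraries of WT6 at 5 and 25 ng/ml stood apart from the others. Relative to the untreated library and with transcripts in 5 equal bins by length, the median log2 change of the shortest bin was 0.60 and 0.58 there and that of the longest bin was -0.42 and -0.46, while these medians lay between -0.08 and 0.06 in the other libraries. The counts of members called in WT6 are therefore also given with trends in length and GC content removed and without both libraries, and single WT6 slopes are given in these forms where the call or the size changes most. VIM, CD44, KRT8 and KRT18 were abundant in every library (at least 7100.3), whereas ESR1, PGR and CDH1 did not exceed 23.8. Of 6 macrophage markers, cells that are rich in lysosomes, PTPRC, ITGAM, AIF1 and CD163 did not exceed 6.18 in any library, CSF1R reached 28.9 and CD14 reached 73.5.

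To ask whether the lysosomal genes followed the dose of doxycycline, the inducer of RBM47, a slope of log2(normalized count + 1) on log2(dose + 1) was fitted per clone with limma across 12644 genes, with the Benjamini-Hochberg adjusted p under 0.05 as the threshold for a call. With 1 library per dose, the spread comes from the scatter of libraries around these lines (9 residual degrees of freedom), and nothing in the sources shows the libraries to be from separate experiments. In WT6 cells 23 of the 41 members rose and 2 fell, with a median slope of 0.09, against 57.5% of all genes called (29.2% up and 28.3% down) and a median of 0.01. In WT10 cells 14 rose and 1 fell, with a median slope of 0.07, against 20% called (10.2% up and 9.83% down). In MUT3 cells limma called 0 of the 41 members, as did edgeR and DESeq2 on the recovered reads, and 0 had an unadjusted limma p under 0.05. The shares of all genes were 0.00% by limma, 0.00791% by edgeR and 2.33% at an unadjusted p under 0.05. Limma thus called 0 of the 12644 genes in MUT3, RBM47 itself included. The RBM47 count nevertheless rose from 73.8 to 22084 there between 0 and 25 ng/ml. A count of 0 members therefore cannot show that MUT3 cells did not respond.

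**Figure D1:**
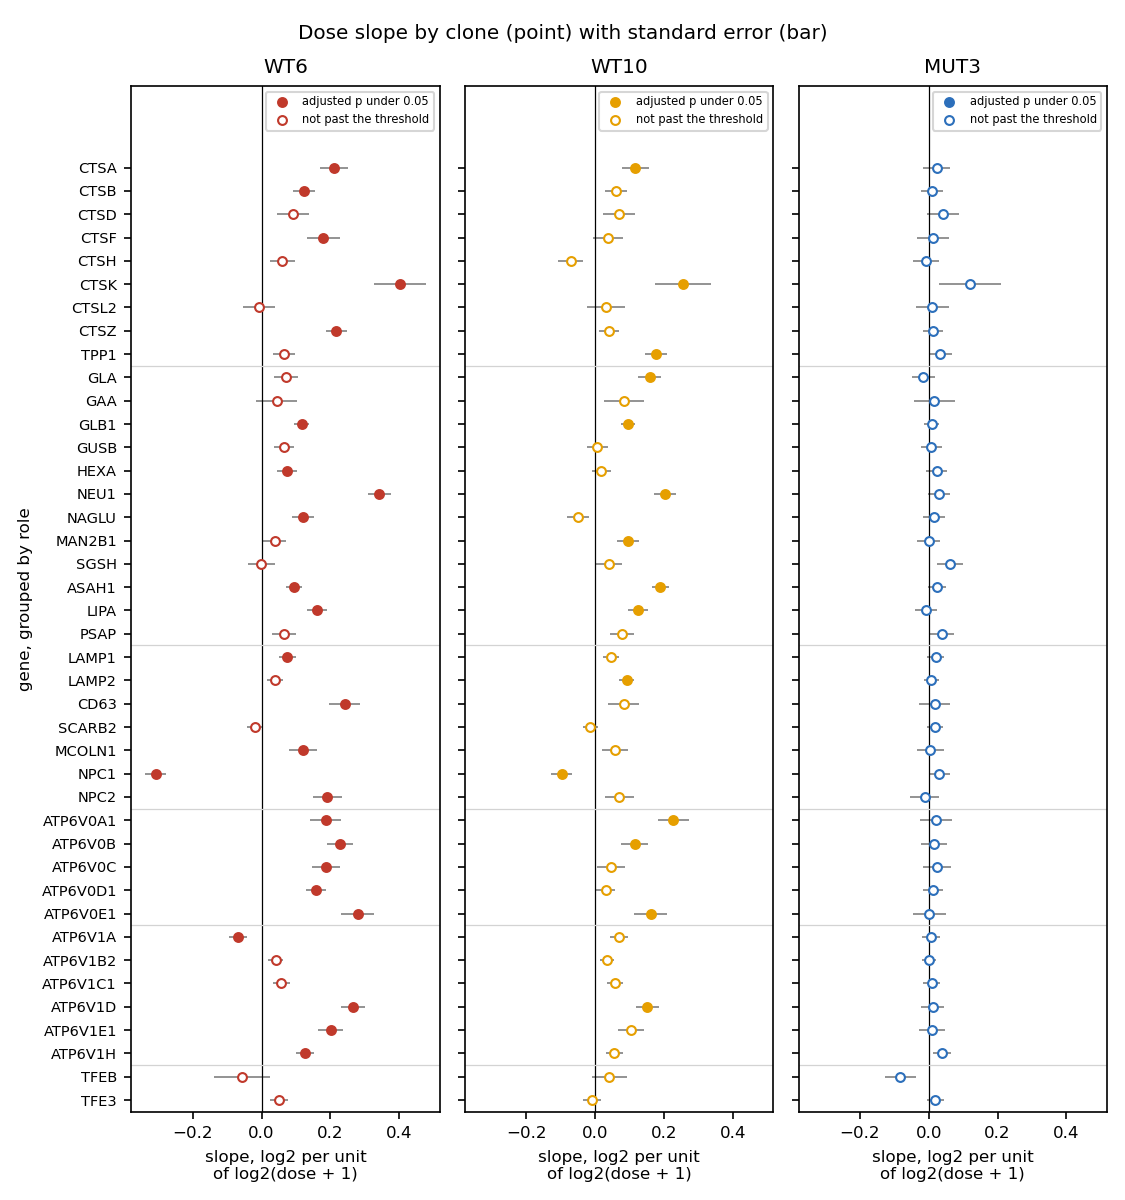
Dose slope of each of the 41 tested genes in WT6, WT10 and MUT3 cells, as log2(normalized count + 1) per unit of log2(dose + 1). Points are fitted slopes, bars their standard errors, and filled points passed an adjusted p under 0.05. In WT6, 25 points are filled, in WT10 15 and in MUT3 0, and NPC1 is the leftmost point in both wild type clones.

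The WT6 count depended on the libraries that stood apart. Without WT6 at 5 and 25 ng/ml, 1 member (NPC1) was called in WT6, against 1.44% of all genes in the same fit, and 24 in WT10, against 38.9%. With the length and GC trends removed, 23 members rose and 2 fell in WT6 (58.6% of all genes called), of which 19 were called in the same direction before. ATP6V0C, ATP6V0D1, ATP6V1A, CTSF, MCOLN1 and NPC2 lost their WT6 call with this step, and 24 rose and 2 fell in WT10 (36.1%). The WT10 count rested on its highest dose: without WT10 at 25 ng/ml 0 members were called by limma, and without WT10 at 1 ng/ml 9 were. Leaving out WT6 at 25 ng/ml gave 12 calls in WT6. The shares of all genes called without these single libraries are not given here. A loss of calls among the members can therefore not be told from a loss across all genes. When the slope was taken on the log2 RBM47 value in place of the dose, 0 members were called in WT6 and 1 in WT10 by limma. The shares of all genes were 0.0158% and 0.704%. Calls were thus lost across all genes, so this fit cannot separate the doxycycline dose from the measured RBM47 mRNA.

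Level by level, the members moved together mainly at 25 ng/ml. In WT10 cells the median log2 change of the 41 genes from the untreated library was -0.0059, 0.013 and 0.031 at 1, 2.5 and 5 ng/ml and 0.30 at 25 ng/ml, where 36 of the 41 were higher. The corresponding share of all tested genes was 48.4%. In WT6 cells the median change was 0.034, 0.0014, 0.16 and 0.49, again with 36 of 41 higher at 25 ng/ml, against 50.9% of all genes. In MUT3 cells it was 0.022, 0.070, 0.015 and 0.086, with 35 of 41 higher at 25 ng/ml, against 54.3%. The direction was thus shared by most members in all clones at 25 ng/ml, and the sizes differed: at most 0.09 in MUT3 against 0.30 and 0.49 in the wild type clones. Of the 41, 33 were highest at 25 ng/ml in WT6 (30% of all genes), 34 in WT10 (34.8%) and 18 in MUT3 (26.2%). Summed over the 42 genes, the normalized count went from 93114 to 137271 in WT6, from 113233 to 145277 in WT10 and from 92264 to 99098 in MUT3 between 0 and 25 ng/ml.

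**Figure D2:**
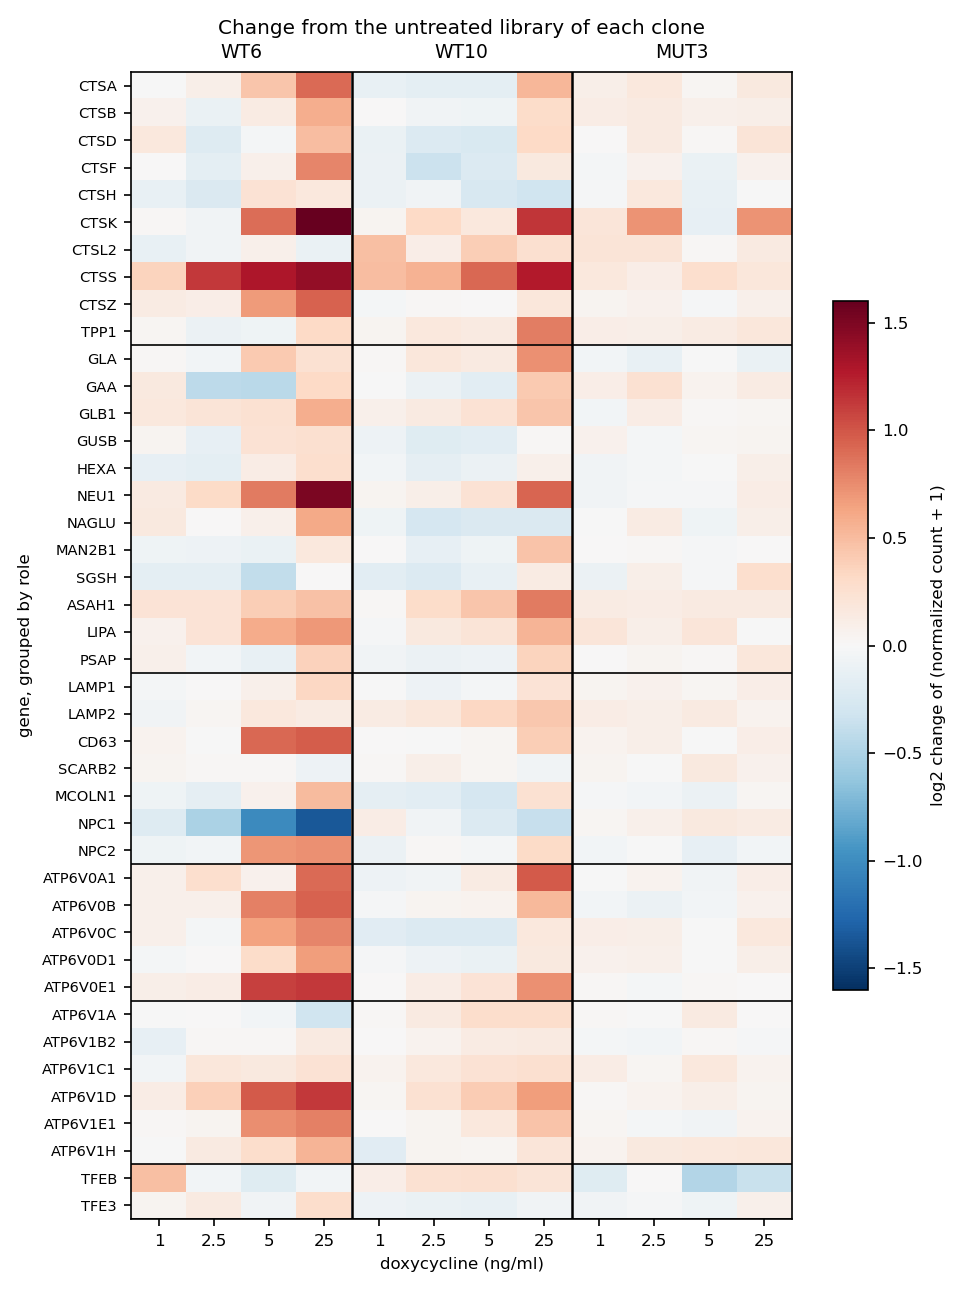
Log2 change of (normalized count + 1) from the untreated library of the same clone, for the 42 genes in rows by role and the 12 treated libraries in columns by clone and dose. Red is higher and blue lower than untreated. In WT10 the red columns are at 25 ng/ml, where 36 of the 41 tested genes were higher, and NPC1 is the darkest blue row in WT6.

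Of the 41 genes, 10 rose in both wild type clones, against 7.02% of all tested genes, and 1 fell in both, against 7.34%. The risers were CTSA, CTSK, GLB1, NEU1, ASAH1, LIPA, ATP6V0A1, ATP6V0B, ATP6V0E1 and ATP6V1D, and the gene that fell was NPC1. Called in WT6 alone were CTSB, CTSF, CTSZ, HEXA, NAGLU, LAMP1, CD63, MCOLN1, NPC2, ATP6V0C, ATP6V0D1, ATP6V1A, ATP6V1E1 and ATP6V1H, with ATP6V1A lower and the others higher. Called in WT10 alone were TPP1, GLA, MAN2B1 and LAMP2, each higher. The 12 genes called in neither were CTSD, CTSH, CTSL2, GAA, GUSB, SGSH, PSAP, SCARB2, ATP6V1B2, ATP6V1C1, TFEB and TFE3.

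Among the cathepsins and related peptidases, which cut proteins inside the lysosome, 5 of 9 tested genes rose in WT6 and 3 of 9 in WT10. The shares of all genes that rose were 29.2% and 10.2%. CTSA (chr20:44518783-44527588, hg19) encodes protective protein, a carboxypeptidase that holds NEU1 and GLB1 in a complex. Its normalized count was 2796, 2787, 2995, 3811 and 5236 in WT6. It was 4319.8, 3985, 3876, 3881 and 6248 in WT10, and 3288, 3514, 3708, 3358 and 3662 in MUT3. The WT10 rise lay entirely in the library at 25 ng/ml, and the slope was 0.21 (SE 0.04, limma adjusted p = 0.000507) in WT6 and 0.12 (SE 0.04, adjusted p = 0.0489) in WT10. Without WT10 at 25 ng/ml the WT10 slope of CTSA was -0.06, and its WT6 slope was 0.11 with length and GC accounted for and 0.05 without WT6 at 5 and 25 ng/ml.

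CTSK, the collagen-degrading cathepsin known from osteoclasts, was expressed at a low level and had the steepest slope of the tested members in both wild type clones. It was 27.4, 27.8, 26.4, 51.8 and 86.0 in WT6. In WT10 it was 27.0, 28.0, 33.9, 30.6 and 61.1, and in MUT3 21.3, 24.4, 35.6, 19.3 and 35.6. The count at 25 ng/ml was 3.14 times the untreated one in WT6, 2.26 times in WT10 and 1.68 times in MUT3, and the difference between the mean wild type slope and MUT3 was 0.21 (SE 0.11, limma adjusted p = 0.158). CTSK was thus called in each wild type clone but not as different from MUT3. Without WT6 at 5 and 25 ng/ml its WT6 slope was -0.03.

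CTSZ, a carboxypeptidase, rose in WT6 only. It was 7258, 7960.2, 7797, 11594 and 13993 in WT6. It was 4697, 4606, 4761, 4729 and 5326 in WT10, and 3858, 3991, 4035, 3803 and 4094 in MUT3. The WT6 slope exceeded that of WT10 by 0.18 (SE 0.04, limma adjusted p = 0.0204), but with the trends in length and GC taken out this difference was 0.05 (adjusted p = 0.0937) and no longer called, and the WT6 slope of CTSZ went from 0.22 to 0.08. TPP1, a tripeptidyl peptidase, was called in WT10 with 1387, 1430.3, 1554, 1533 and 2451. In WT6 it was 1631, 1669.6, 1533, 1560.0 and 2034, and in MUT3 1163, 1252, 1238, 1272 and 1316. Its WT10 slope was 0.18 (SE 0.03, limma adjusted p = 0.00168), and the WT6 and WT10 slopes were not called as different (difference -0.11, SE 0.04, adjusted p = 0.0941).

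CTSS, an elastin-degrading cathepsin typical of antigen presenting cells, was read separately from the fit. In WT10 cells it was 445, 629, 652, 845 and 1070.4, higher at every step of the dose. In MUT3 cells it was 380.2, 426, 409, 458 and 429.5. WT6 cells had 2.19, 3.09, 5.97, 6.81 and 7.47, which rests on 23 reads in the 5 libraries together, 2 of them at 0 ng/ml. The clones fell into 2 classes, with WT6 close to or under the floor of 3 reads and the others far above it. In a limma fit with no filter on low values the WT10 slope of CTSS was 0.26 (SE 0.03, adjusted p = 5.6e-05) and exceeded that of MUT3 by 0.22 (SE 0.05, adjusted p = 0.0146).

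Of the 12 hydrolases of glycans and lipids, 6 rose in WT6 and 6 in WT10, against 29.2% and 10.2% of all genes. Of these, 4 were shared, GLB1, NEU1, ASAH1 and LIPA, against 7.02% of all genes. NEU1 (chr6:31825436-31830682, hg19) encodes the lysosomal sialidase, which removes terminal sialic acids, and was the member with the largest difference between wild type and mutant clones. It was 1183, 1305, 1465, 2110.4 and 3361 in WT6. It was 1906, 1957, 2041, 2245 and 3622 in WT10, and 1893, 1825, 1864, 1862 and 2062 in MUT3. NEU1 was higher at each dose step in both wild type clones, and all treated libraries of MUT3 lay within a narrow range. At 25 ng/ml it was 2.84 times the untreated count in WT6, 1.90 times in WT10 and 1.09 times in MUT3. The slope was 0.34 (SE 0.03, limma adjusted p = 4.48e-06) in WT6, 0.20 (SE 0.03, adjusted p = 0.000727) in WT10 and 0.03 in MUT3, and the mean wild type slope exceeded MUT3 by 0.24 (SE 0.04, adjusted p = 0.00149). Removal of the length and GC trends left the WT6 slope of NEU1 at 0.35.

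ASAH1, the acid ceramidase, showed its steeper rise in WT10. It was 1141, 1154, 1394, 1548 and 2029.9 in WT10. In WT6 it was 1384, 1605, 1605, 1812 and 1908, and in MUT3 768, 843, 833, 849 and 849. The WT10 libraries rose step by step, and the WT10 slope of 0.19 (SE 0.02, limma adjusted p = 0.000138) exceeded MUT3 by 0.17 (SE 0.04, adjusted p = 0.0161). GLB1, the beta-galactosidase of the same complex as NEU1 and CTSA, was 1762, 1977, 2027, 2093 and 2628 in WT6. It was 2034, 2144, 2253, 2388 and 2766 in WT10, and 1833, 1776, 1984, 1861 and 1869.9 in MUT3. GLB1 rose at every step in both wild type clones, by 1.49 and 1.36 times at 25 ng/ml, and its mean wild type slope exceeded MUT3 by 0.10 (SE 0.03, limma adjusted p = 0.0158).

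LIPA, the acid lipase that hydrolyses cholesteryl esters and triglycerides, was 1006, 1055, 1172, 1512 and 1624 in WT6. In WT10 it was 1227, 1214, 1362, 1413 and 1791, and in MUT3 790.3, 901, 846, 904 and 789.9. Its mean wild type slope exceeded MUT3 by 0.15 (SE 0.04, limma adjusted p = 0.0109). The annotated span of LIPA overlaps 6 genes on the opposite strand, IFIT1, IFIT2 and IFIT3 among them, and whether the libraries kept strand is not given in the sources used here. Other members overlap opposite-strand genes as well, such as GLA with RPL36A, NPC1 with RMC1, CTSA with PLTP, CTSZ with NELFCD and ATP6V1D with PALS1. GLA, the alpha-galactosidase that cleaves globotriaosylceramide, was 1102, 1112, 1253, 1219.9 and 1828 in WT10. In MUT3 it was 1428, 1383, 1309.7, 1428 and 1331, and in WT6 712, 719.5, 694, 952 and 846. GLA was flat or lower in MUT3 and highest at 25 ng/ml in WT10, with a WT10 slope above that of MUT3 by 0.17 (SE 0.05, limma adjusted p = 0.0419). With length and GC accounted for, GLA was called as lower in WT6 (slope -0.06, against 0.07 and no call without that step). Among the others, NAGLU, an N-acetylglucosaminidase of heparan sulfate, had a higher slope in WT6 than in WT10 by 0.17 (SE 0.05, limma adjusted p = 0.0292), and by 0.09 (adjusted p = 0.0367) with length and GC accounted for.

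**Figure D3:**
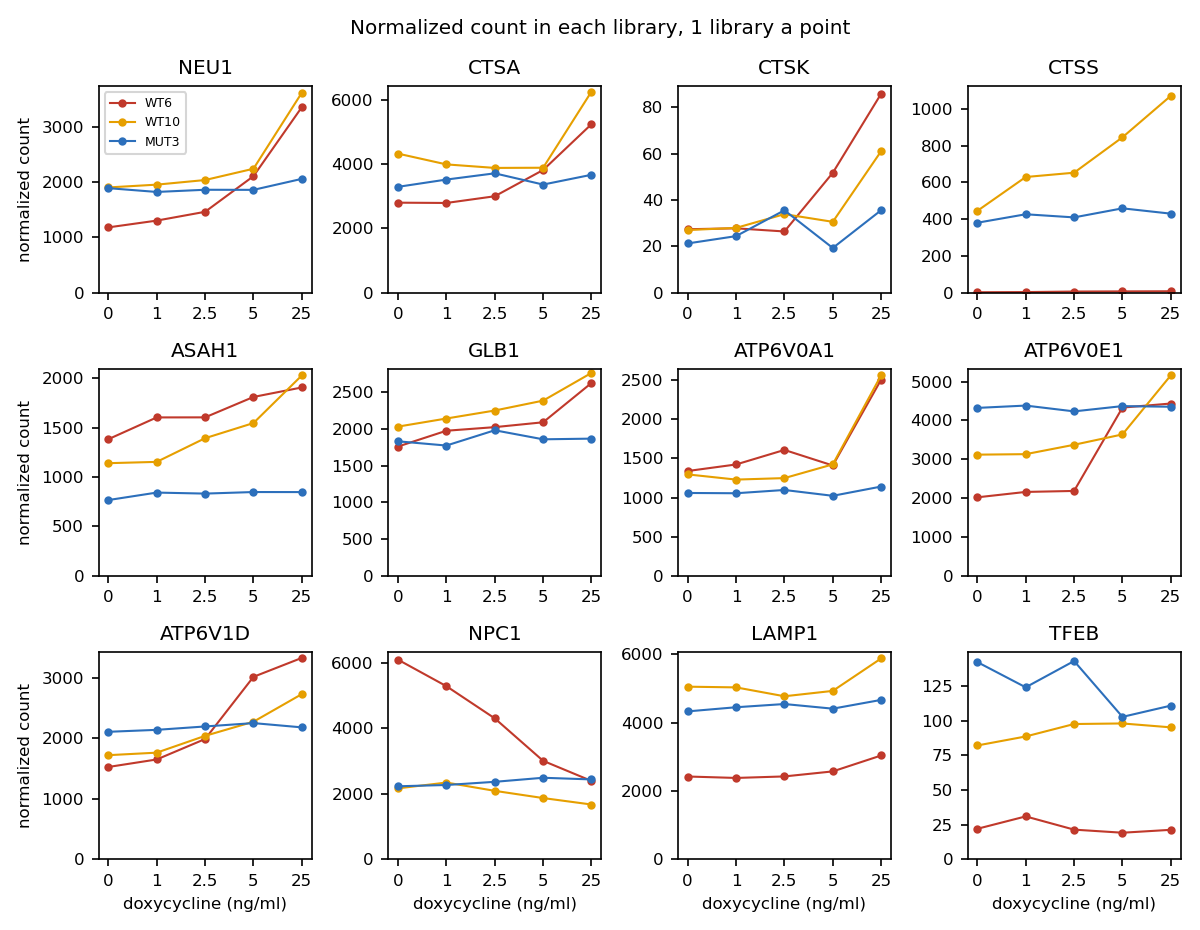
Normalized count of 12 genes by doxycycline dose (ng/ml) in WT6, WT10 and MUT3 cells, 1 library a point, with doses evenly spaced and each vertical axis starting at 0. NEU1 ends at 3361 in WT6 and 3622 in WT10 but 2062 in MUT3, NPC1 goes from 6097 to 2389 in WT6, and CTSS in WT6 lies on the baseline.

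Of 7 membrane proteins and sterol carriers, 4 rose and 1 fell in WT6, and 1 rose and 1 fell in WT10. The shares of all genes were 29.2% up and 28.3% down in WT6, and 10.2% up and 9.83% down in WT10. NPC1 (chr18:21086148-21166470, hg19), which moves cholesterol out of the lysosome, was the only member that fell in both wild type clones. It was 6097, 5287, 4303, 3004 and 2389 in WT6, lower at each step. In WT10 it was 2163, 2339.7, 2086, 1866 and 1668, and in MUT3 2226, 2265, 2362, 2486 and 2436. At 25 ng/ml NPC1 was thus 0.39 times the untreated count in WT6 and 0.77 times in WT10, and WT6 came down from a starting level well above the other clones to about that of MUT3. The slope was -0.31 (SE 0.03, limma adjusted p = 4.92e-06) in WT6 and -0.10 (SE 0.03, adjusted p = 0.0373) in WT10, a difference of -0.21 (SE 0.04, adjusted p = 0.0148), and the mean wild type slope was below MUT3 by 0.23 on the log2 scale (estimate -0.23, SE 0.04, adjusted p = 0.00113). With the length and GC trends removed the WT6 slope of NPC1 was -0.25.

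NPC2, the soluble partner that hands cholesterol to NPC1, went the other way in WT6, from 1536 to 2542 between 0 and 25 ng/ml, and in WT10 from 1781 to 2199. The WT6 slope of NPC2 fell from 0.19 to 0.03 once the length and GC trends were removed (limma adjusted p = 0.233 after removal), and its transcript of 821 bases is the shortest of the 42. CD63, a tetraspanin with a transcript of 1023 bases, had a WT6 slope of 0.24 before and 0.08 after that removal. LAMP2, a structural glycoprotein of the lysosomal membrane and the longest transcript here at 6535 bases, was called in WT10 with 3274, 3577, 3726, 4112 and 4404. In WT6 it was 1635, 1575, 1673, 1838 and 1791, and in MUT3 3594, 3903, 3828, 3962 and 3742. LAMP2 rose at each dose step in WT10, and in WT6 its slope was 0.04 before and 0.15 after the trends were removed. LAMP1, its paralog, was 2419.8, 2378, 2422, 2569.6 and 3036 in WT6. It was 5052, 5032, 4771, 4929 and 5880.3 in WT10 and 4328, 4449, 4544, 4408 and 4665 in MUT3, so that the clones did not overlap between WT6 and the others.

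Of the pump, all 5 tested V0 subunits rose in WT6 and 3 of 5 in WT10, against 29.2% and 10.2% of all genes. ATP6V0C and ATP6V0D1 lost their WT6 call with length and GC accounted for. ATP6V0A1, the proton-translocating subunit a1, was 1338, 1422, 1607, 1409 and 2505 in WT6. It was 1295, 1229, 1248, 1423 and 2560.4 in WT10, and 1058, 1054, 1096, 1022 and 1139.8 in MUT3. Both wild type clones were highest in the library at 25 ng/ml, at 1.87 and 1.98 times the untreated count, and WT6 was also raised at 2.5 but not at 5 ng/ml, and the mean wild type slope exceeded MUT3 by 0.19 (SE 0.06, limma adjusted p = 0.0268). ATP6V0B, the c-ring subunit, was 3318, 3524, 3516, 5822 and 6379 in WT6. In WT10 it was 3037, 2995, 3138, 3167 and 4367, and in MUT3 3005, 2927, 2806, 2921 and 3139. WT6 stepped up between 2.5 and 5 ng/ml and WT10 only at 25 ng/ml, with slopes of 0.23 (SE 0.04, limma adjusted p = 0.000235) and 0.11 (SE 0.04, adjusted p = 0.0461), and with length and GC accounted for the WT6 slope of ATP6V0B was 0.06.

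ATP6V0E1, a small membrane subunit, was 2021, 2159.6, 2185, 4329.8 and 4435 in WT6. It was 3119, 3132, 3373, 3639 and 5160.2 in WT10, and 4322, 4382, 4232, 4368 and 4352 in MUT3. Both wild type clones started lower than MUT3 and ended as high or higher, and the mean wild type slope exceeded MUT3 by 0.22 (SE 0.06, limma adjusted p = 0.0154). ATP6V0C rose in WT6 alone, and its WT6 slope of 0.19 became 0.01 with length and GC accounted for. ATP6V0D1, the subunit d that couples the sectors, had a WT6 slope above that of WT10 by 0.13 (SE 0.04, limma adjusted p = 0.0443), a difference of 0.01 (adjusted p = 0.784) with length and GC accounted for. Its values in WT6 were 1635, 1597, 1639, 2007 and 2592, and in WT10 2901, 2861, 2734, 2697 and 3229.8, with 1841, 1937, 1942, 1832 and 1962 in MUT3. The WT10 libraries of ATP6V0D1 lay above all those of WT6 and MUT3.

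Of the 6 tested V1 subunits, 3 rose and 1 fell in WT6, against 29.2% up and 28.3% down of all genes. In WT10 1 rose, against 10.2%. With length and GC accounted for, ATP6V1A lost its WT6 call and ATP6V1C1 gained one. In WT10 all 6 V1 subunits were above untreated at 2.5, 5 and 25 ng/ml, against 2, 3 and 5 of the 5 V0 subunits. The shares of all genes above untreated were 48.9%, 47.5% and 48.4%. ATP6V1D, a subunit of the central stalk, was 1527, 1651, 1989.9, 3021 and 3335 in WT6. In WT10 it was 1722, 1764, 2043, 2277 and 2734, and in MUT3 2109.7, 2142, 2198, 2254 and 2183. ATP6V1D rose at each step in both wild type clones, and its mean wild type slope exceeded MUT3 by 0.20 (SE 0.04, limma adjusted p = 0.00468). ATP6V1E1, a peripheral stalk subunit, was 2177, 2196, 2244, 3635 and 3792 in WT6. It was 1691, 1697, 1741, 1901 and 2328 in WT10, and 1786, 1819, 1751, 1722 and 1864 in MUT3. Its rise was called in WT6 only (slope 0.20, SE 0.04, limma adjusted p = 0.000394), with a WT10 slope of 0.10 (adjusted p = 0.0606). ATP6V1A, a catalytic subunit, took opposite courses, from 1041 to 832 in WT6 and from 749.7 to 914 in WT10 between 0 and 25 ng/ml, a difference in slope of -0.14 (SE 0.04, limma adjusted p = 0.0285) that became -0.06 (adjusted p = 0.0891) with length and GC accounted for.

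TFEB and TFE3 showed no called slope in any clone, except that TFE3 was called in WT6 (slope 0.05) with length and GC accounted for. TFEB was 21.9, 30.9, 21.3, 19.1 and 21.2 in WT6. It was 82.2, 88.7, 97.7, 98.1 and 95.3 in WT10 and 143, 124, 143, 103 and 111 in MUT3. The clones did not overlap, in the order WT6, WT10, MUT3, at every dose. TFE3 was 1374, 1416, 1519, 1316 and 1675 in WT6, 2165, 2047, 2008, 1988 and 2082 in WT10, and 2336, 2239, 2309.9, 2235 and 2465 in MUT3. The slope of TFE3 was 0.05 (SE 0.03, limma adjusted p = 0.101) in WT6 and -0.01 in WT10. mRNA level says nothing of the place of these factors in the cell, which was not measured. Of the 10 tested members with CACGTG in the promoter, 8 rose in WT6 and 3 in WT10, with median slopes of 0.17 and 0.08. Of the 18 without it, 8 rose in WT6 and 7 in WT10, with medians of 0.07 and 0.06. The shares of all genes that rose were 29.2% and 10.2%. With length and GC accounted for, CTSF, MCOLN1 and ATP6V0D1, which hold CACGTG, lost their WT6 call, as did NPC2 and ATP6V0C, which lack it. TPP1, SCARB2 and TFE3, which also lack it, were called as higher in WT6 only after that step, so the WT6 split depended on it. Split by the longer GTCACGTG, the medians were alike: 0.12 with and 0.12 without it in WT6, and 0.07 with and 0.07 without it in WT10. These are descriptions without a test.

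The comparison of the slopes showed 13 members whose mean wild type slope differed from MUT3, 12 higher and NPC1 lower, against 24.6% of all genes called (10.1% higher and 14.6% lower). With length and GC trends taken out, 15 were higher and 1 lower, against 36.5% of all genes. Besides those described above the 12 were completed by CTSA (difference 0.14, SE 0.05, limma adjusted p = 0.0458) and GLA (0.13, SE 0.04, adjusted p = 0.0327), with CTSZ, ATP6V0B and ATP6V1E1 at 0.12, 0.15 and 0.14. The count fell to 0 without MUT3 at 25 ng/ml, 3 without WT10 at 25 ng/ml, 5 without untreated MUT3, 8 without MUT3 at 1 ng/ml and 6 without WT6 at 5 and 25 ng/ml. Within the 231-BrM2 background, WT10 differed from MUT3 in 3 members, all higher, against 5.62% of all genes called (2.66% higher and 2.97% lower). They were GLA, NEU1 and ASAH1, and the count was 0 without WT10 at 25 ng/ml, untreated MUT3 or MUT3 at 25 ng/ml by limma, and 13 without WT6 at 5 and 25 ng/ml. It was 11 without WT6 at 5 ng/ml, 6 without WT6 at 25 ng/ml, 5 without untreated WT10, and 1 without WT6 or WT10 at 1, WT10 at 2.5, or MUT3 at 1, 2.5 or 5 ng/ml. Between the wild type clones 3 members had a higher slope in WT6 (CTSZ, NAGLU and ATP6V0D1) and 2 a lower one (NPC1 and ATP6V1A), against 14.4% of all genes (7.28% higher and 7.09% lower), and without WT6 at 5 and 25 ng/ml the count was 0. That count was 11 without WT6 at 5, 10 without WT10 at 25, 3 without WT6 at 1, 2 without WT10 at 1, 1 without WT6 at 25 ng/ml and 0 without untreated WT10. For all these counts with libraries left out, the share of all genes called is not given here. Their changes can therefore not be told from changes across all genes.

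The fitted untreated levels of the members differed between clones about as often as those of all genes. Between WT10 and MUT3, cells of the same parental line, 7 members were higher in WT10 and 5 lower, against 28.2% of all genes called (14.3% higher and 13.9% lower). CTSD, the aspartic cathepsin, was 18409.6, 17038, 15832, 15535 and 23049.7 in WT10. In MUT3 it was 8234, 8271, 9116, 8345 and 9483, and in WT6 8839.7, 9969.5, 7664, 8628 and 12455, so that every library of WT10 was above every library of the others. The fitted untreated level of CTSD was higher in WT10 than in MUT3 by 0.98 (SE 0.17, limma adjusted p = 0.000536). HEXA, the alpha subunit of beta-hexosaminidase, was 1945, 1894, 1754, 1817 and 2056 in WT10. It was 1094, 1055, 1067, 1085 and 1164 in MUT3, and 1322, 1207, 1189, 1440.1 and 1587 in WT6. HEXA was higher in WT10 by 0.80 (SE 0.11, limma adjusted p = 6.02e-05), while TFEB and ATP6V0E1 were lower by 0.67 and 0.58 on the log2 scale (estimates -0.67 and -0.58). ATP6V0D1 completed the largest differences at 0.56. Without untreated MUT3 4 of these level differences were called, and without untreated WT10 7, counts given without the share of all genes in the same fits.

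WT6 and WT10 differed in 25 of the 41 members, 6 higher and 19 lower in WT6, against 59.6% of all genes called (30.8% higher and 28.8% lower). TFEB was the lowest relative to WT10 (log2 difference -1.79, SE 0.24, limma adjusted p = 1.43e-05), and CTSF followed at -1.24, LAMP1 at -1.06 and LAMP2 at -1.05. CTSF, a papain-like cathepsin, was 280.6, 282, 252, 297 and 483 in WT6. It was 642, 599.9, 507, 551 and 713 in WT10 and 464, 454, 488, 432 and 488 in MUT3. NPC1 was the other extreme, higher in WT6 by 1.41 (SE 0.11, limma adjusted p = 3.73e-08). Clone, parental line and transgene copy cannot be told apart with 1 clone of each kind.

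**Figure D4:**
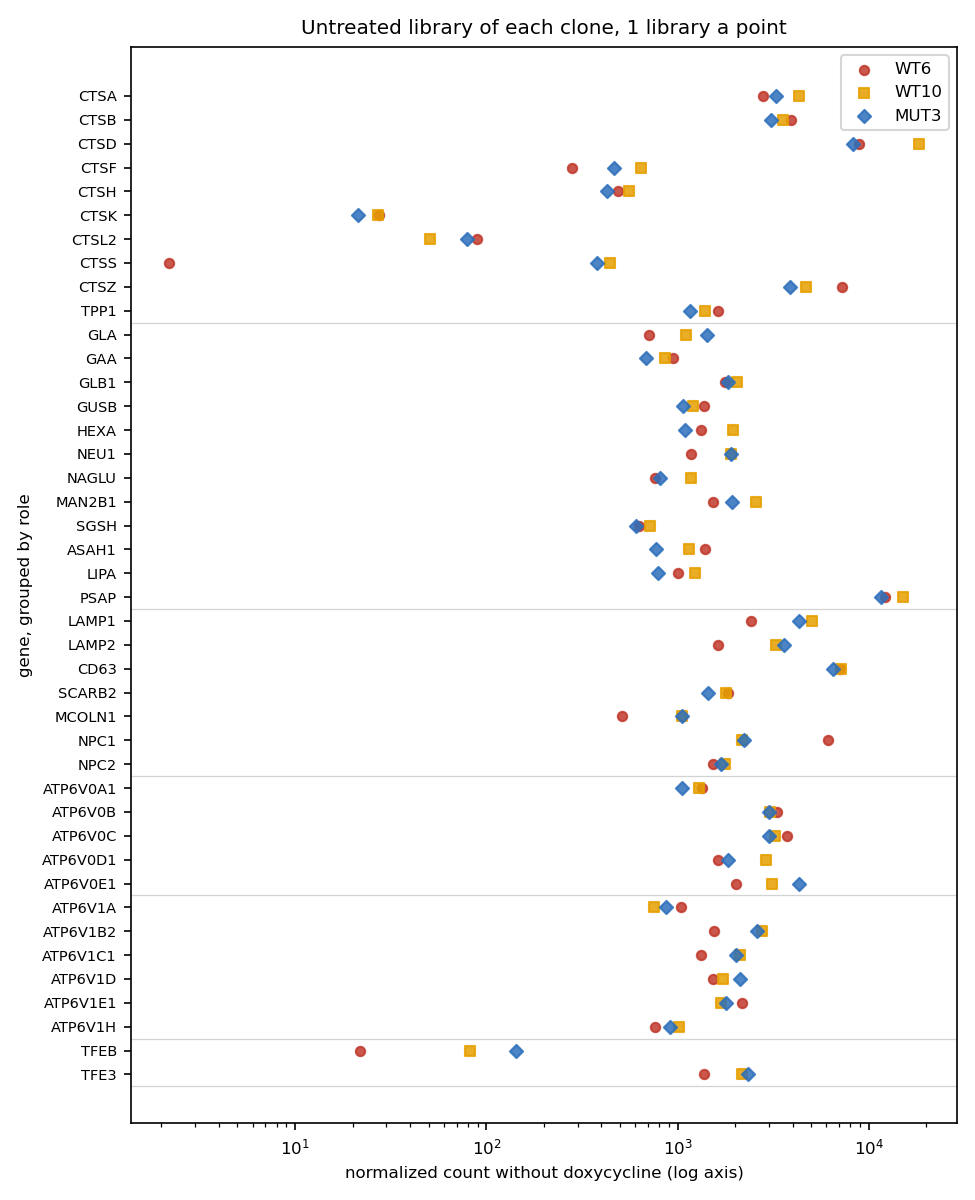
Normalized count of the 42 genes without doxycycline in WT6, WT10 and MUT3 cells, 1 library a point, on a log axis. Most genes have their 3 points close together, and the widest gaps are CTSS (2.19 in WT6 against 445 and 380.2), TFEB (21.9, 82.2 and 143) and NPC1 (6097, 2163 and 2226).

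Per kilobase of transcript, the untreated levels ranged widely and kept a similar order in the clones. CD63 led in WT6 (6905 normalized counts per kilobase) and MUT3 (6370.1), and CTSD led in WT10 (8958) with CD63 next (6982). PSAP, the precursor of the saposins that present lipids to the hydrolases, was among the top 3 in every clone, at 4448, 5494 and 4195 in WT6, WT10 and MUT3. At the bottom stood CTSK and CTSL2, now named CTSV, with at most 20.6 per kilobase in any clone, TFEB with 9.39, 35.2 and 61.1 in WT6, WT10 and MUT3, and CTSS in WT6 alone with 0.557. With 1 untreated library a clone, the order of neighbours has no error.

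Other genes of the pathway were taken from lists of 112 tested genes that are not members. The share of all genes called, to be read beside each count, was 57.5% in WT6 and 20% in WT10. Without WT6 at 5 and 25 ng/ml at most 2 genes of any of these lists were called in WT6. Of 28 further hydrolases, 11 rose and 4 fell in WT6, and 8 were called in WT10, each higher, which is 53.6% and 28.6% of the list. CTSL1, a cysteine cathepsin, went from 2364 to 4675 in WT6, from 2561 to 4186 in WT10 and from 1644 to 1805 in MUT3 between 0 and 25 ng/ml. ARSA, the arylsulfatase, went from 93.2 to 305 in WT6 and from 136 to 169.9 in WT10, where it was not called. CTSO rose in both wild type clones, with slopes of 0.18 (limma adjusted p = 0.019) and 0.21 (adjusted p = 0.014).

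Of 20 further membrane proteins and transporters, 7 rose and 3 fell in WT6, and 5 were called in WT10, each higher. SLC17A5, which exports the sialic acid released by NEU1, went from 396 to 1249 in WT6, from 407 to 1019.6 in WT10 and from 408 to 477 in MUT3. Its slope was 0.36 (SE 0.03, limma adjusted p = 3.3e-06) in WT6 and 0.29 (SE 0.03, adjusted p = 7.39e-05) in WT10, larger in both than that of any tested membrane protein among the 42. CLN3 rose in both clones (slopes 0.21 in WT6 and 0.10 in WT10, or 0.08 and 0.10 with length and GC accounted for), and LAMP3 fell in WT6 from 198 to 66.0. Of 11 further pump subunits, 6 rose and 1 fell in WT6 and 3 rose in WT10. ATP6V0A4, the a4 isoform, went from 247 to 970.4 in WT6 and from 214 to 519 in WT10, and from 284 to 323 in MUT3. ATP6V1G2, an isoform known from neurons, went from 10.96 to 46.1 in WT6 and from 13.0 to 89.1 in WT10 at low counts, and ATP6V1G1 from 1801 to 4104 and from 1878 to 3457. The WT6 slope of ATP6V1G2 was 0.52, and -0.19 without WT6 at 5 and 25 ng/ml. That of ATP6V1G1 was 0.28, and 0.17 with length and GC accounted for.

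Autophagy genes, whose products bring cargo to the lysosome, had the largest share of calls among these lists with over 2 genes: 13 of 18 rose and 1 fell in WT6, and 7 were called in WT10, each higher, which is 77.8% and 38.9% of the list. With length and GC accounted for, 15 rose and 2 fell in WT6 and 11 rose in WT10, which is 94.4% and 61.1% of the list. The shares of all genes called in that fit were 58.6% and 36.1%. SQSTM1, the cargo receptor p62, went from 9209 to 38038 in WT6, from 22050.0 to 45649 in WT10 and from 25306 to 26002 in MUT3. GABARAPL1 went from 187 to 695 in WT6 and from 288 to 871 in WT10, and MAP1LC3B from 1169 to 3128 and from 1766 to 3525, both coding for ubiquitin-like proteins of the autophagosome membrane. The routes that deliver enzymes to the lysosome showed 3 risers and 3 fallers among 16 genes in WT6 and 1 called gene in WT10, NAGPA, higher, which is 37.5% and 6.25% of the list. Of the enzyme that starts the mannose 6-phosphate tag, the subunit genes moved in opposite directions in WT6: GNPTAB fell from 928 to 439.7, and GNPTG rose from 462 to 1089. Their WT6 slopes were -0.15 and 0.19 with length and GC accounted for. Without WT6 at 5 and 25 ng/ml they were 0.0019 and 0.10, neither called. In WT10 neither gene was called with all libraries and no trend removed. With length and GC accounted for, GNPTG was called there (slope 0.09, limma adjusted p = 0.0169). Nutrient sensing genes showed 5 risers and 6 fallers among 17 in WT6 and 1 called gene, LAMTOR3, higher, in WT10, which is 64.7% and 5.88% of the list. The cystatins CSTB and CST3, inhibitors of cysteine cathepsins, rose in WT6, CSTB from 2533 to 6870 and CST3 from 4687 to 10638. Their WT6 slopes of 0.35 and 0.28 became 0.18 and 0.09 with length and GC accounted for. Without WT6 at 5 and 25 ng/ml both were 0.01. In WT10 CSTB went from 1874 to 3148 and CST3 from 5545 to 5330. Neither was called with all libraries and no trend removed (limma adjusted p = 0.0515 for CSTB). CSTB was called in WT10 with length and GC accounted for (slope 0.14, limma adjusted p = 0.00181). It was also called there without WT6 at 5 and 25 ng/ml (slope 0.17, limma adjusted p = 0.000111), and CST3 was called in neither form. In MUT3 limma and edgeR called 0 of the 112 genes, and 3 had an unadjusted p under 0.05.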

How the data were processed

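RNA was sequenced from 15 libraries, 3 clones at 5 doses. The authors aligned the reads with STAR (hg19), tallied reads for every gene in HTSeq 0.5.4 per the submitters' processing notes (default settings), and divided the counts by a DESeq size factor. The deposited values are therefore a normalized signal and not raw counts. The default of HTSeq counts by strand, and whether the libraries kept strand, and which annotation was used, are not given in the sources used here. Of all tallied values in a library, 56.5% to 59.6% fell on no gene and 0.527% to 0.617% were ambiguous, and the reason was not tested. Scaled back by the value of a single read, 100% of the values were whole reads within 0.001. Reads on genes were 14955172 to 44771871 per library. A floor of 3 reads equals 1.19 to 4.09 in the deposited unit, and it covers counting error only.

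Groups came from the sample labels. The 42 genes and all lists were chosen with earlier results of these data known. log2(value + 1) was fitted with limma 3.58.1 (R 4.3.3) and vooma weights, with each clone given its own intercept and its own slope on log2(dose + 1), over 12644 genes with a mean of at least 10 in each clone. Lengths, GC content and hg19 coordinates came from GENCODE release 44, which matched 90.8% of the genes. In one alternative, spline trends (4 degrees of freedom) against length and GC were subtracted from every library. The fit was tested on simulated data. Alternatives were edgeR 4.0.16 and DESeq2 1.42.0 on the recovered reads, other pseudocounts, filters, scalings and dose codings, and left-out libraries. Leaving out WT6 at 5 and 25 ng/ml was added after seeing the data. Values in every library are given for members called in both wild type clones or differing from MUT3, the 5 largest called slopes per wild type clone, the 5 largest called level differences per comparison, TFEB and TFE3. Of each other list up to 3 called genes with the largest mean wild type slope are named. CTSS, NAGLU, NPC2, CD63, ATP6V0C, ATP6V0D1 in WT6 and ATP6V1A are described as well, chosen after their values were seen. Figures were drawn in Python 3.11.15.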

Additional observations from a re-analysis of the deposited data

Results flagged for a closer look

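Each member below had a dose slope that differed between clones by limma's test of the difference itself (adjusted p under 0.05). The mean wild type slope minus the MUT3 slope, on the log2 scale, passed for CTSA (0.14), CTSZ (0.12), GLA (0.13), GLB1 (0.10), NEU1 (0.24), ASAH1 (0.12), LIPA (0.15), NPC1 (-0.23), ATP6V0A1 (0.19), ATP6V0B (0.15), ATP6V0E1 (0.22), ATP6V1D (0.20) and ATP6V1E1 (0.14).

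The WT10 slope minus the MUT3 slope passed for GLA (0.17), NEU1 (0.17) and ASAH1 (0.17). The WT6 slope minus the WT10 slope passed for CTSZ (0.18), NAGLU (0.17), NPC1 (-0.21), ATP6V0D1 (0.13) and ATP6V1A (-0.14). In the last comparison each value includes WT6 at 5 and 25 ng/ml, the libraries with a trend by transcript length, and 0 of the 5 passed without them by limma. With length and GC trends removed, NPC1 (-0.17) and NAGLU (0.09) were still called, and CTSZ (0.05, limma adjusted p = 0.0937), ATP6V0D1 (0.01) and ATP6V1A (-0.06) were not. After removal of the trends with length and GC content, 11 of the 13 differences from MUT3 were called in the same direction, and ATP6V1E1 and GLA were not. No clone and dose had replicates, so no single library could be set against its group.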

How the results depend on the processing

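With 1 library per clone and dose, scatter between cultures was not measured, and the floor of 3 reads limits CTSS in WT6. No paired analysis was possible because each clone and dose has 1 library and the clones share no replicate numbers beyond it. For the slopes in WT6 (25 members called), WT10 (15), MUT3 (0), the wild type mean against MUT3 (13), WT10 against MUT3 (3) and WT6 against WT10 (5), and the untreated levels of WT10 against MUT3 (12) and WT6 against WT10 (25), settings not named here kept the count within 1.5 times, and MUT3 stayed at 0 by limma, edgeR and DESeq2. On log2 RBM47 the counts were 0 in WT6, 1 in WT10 and 0 for each difference of slopes. With any doxycycline against none they were 0 for all slopes and differences, 0 for the level of WT10 against MUT3 and 13 for that of WT6 against WT10. On the concentration itself 7 members differed between wild type and MUT3 and 0 between WT6 and WT10. Without 25 ng/ml 14 were called in WT6 and 0 in WT10 and in each difference. Without precision weights WT10 had 9 and WT10 against MUT3 had 1, and with DESeq2 the latter had 7. With length and GC trends removed WT10 had 26, WT10 against MUT3 11 and its levels 20. Without WT6 at 5 and 25 ng/ml, an alternative added after seeing the data, the counts were 1 in WT6, 24 in WT10, 6 for wild type against MUT3, 13 for WT10 against MUT3 and 0 for WT6 against WT10. Leaving out each library in turn gave 12 to 30, 0 to 20, 0 to 0, 0 to 17, 0 to 11, 0 to 11, 4 to 17 and 23 to 31 in the order above. These are counts of members alone, and the number of calls across all genes can change in the same fits. Directions turned for CTSA (-0.060) and MAN2B1 (-0.039) in WT10 without 25 ng/ml or without WT10 at 25 ng/ml, their highest slopes with 1 library left out being 0.19 and 0.14, and in WT6 without its libraries at 5 and 25 ng/ml for CTSB (-0.054), CTSF (-0.079), CTSK (-0.026), HEXA (-0.086), LAMP1 (-0.00024), CD63 (-0.0022), MCOLN1 (-0.076), NPC2 (-0.027), ATP6V0C (-0.011) and ATP6V1A (0.0032). Fewer libraries enter these fits, and other causes were not tested.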
